A study of Mus musculus with 5 samples.

Results

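The genes described here are heat shock proteins and co-chaperones, 10 named genes of the protein folding machinery: Hspa1a, Hspa1b, Hspa8, Hsph1, Dnajb1, Hsp90aa1, Hspb1, Hspd1, Hspe1 and Bag3. They were followed through the array spots whose transcript accession belongs to one of these symbols. This found 14 probes for 9 of the 10 genes, out of 55681 distinct probes and 27938 genes tested; Hspb1, Hspa1a, Dnajb1, Hsp90aa1, Hspd1 and Bag3 have 1 probe each, Hsph1 has 2, and Hspa8 and Hspe1 have 3 each. No spot of the arrays was matched to the transcript of Hspa1b, so it has no value here. All 14 probes were well above background on all 5 arrays and 0 were saturated.

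RNA came from adherent peritoneal macrophages of mice aged 8 weeks, which were washed out of the abdominal cavity and kept in a dish overnight. There were 3 wild-type littermates, numbered 5, 11 and 14, and 2 c-JunΔLysM mice, numbered 1 and 9, with the genotype cJunfl/fl LysMCre-/+, that is, floxed alleles of Jun and a Cre recombinase driven by the lysozyme M gene of myeloid cells. All animals were on a 129/C57Bl6 background and of either sex; whether the wild-type mice carried floxed alleles or Cre is not given in the sources used here. The source names of the c-Jun-deleted samples and the header of the deposited series table give Mx in place of LysM. The labels number separate mice; should any arrays share an animal, the p-values would reflect technical spread alone.

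Heat shock proteins of the HSP70 class hold unfolded proteins in cycles driven by ATP. J-domain partners such as Dnajb1 deliver the client and start the cycle, and exchange factors such as Hsph1 and Bag3 end it. HSP90 finishes the folding of kinases and receptors, small heat shock proteins such as Hspb1 keep clients from clumping, and the Hspd1 and Hspe1 products form the folding chamber of mitochondria. Most of these genes are switched on by heat shock factor 1 (Hsf1), which binds inverted repeats of a short GAA unit in their promoters; Jun belongs to the AP-1 factors, which bind a short palindrome. Macrophages are known to raise heat shock genes on heat, infection and handling.

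Promoters of 8 of the 10 genes were found in the RefSeq table of assembly GRCm38.p6, as 11 windows of 300 bases, from 250 before to 50 after a start; Hspa8 and Hsp90aa1 had no entry. The sequences that follow are shown because they carry the matches to the heat shock factor motif, or, for Bag3, the AP-1 motif, and are written 5′ to 3′ on the strand of the gene with the matched letters in capitals. The Hspa1a stretch is chr17:34972186-34972291 and that of Hspa1b chr17:34959268-34959373, both on the minus strand. The Hspe1 stretch is chr1:55088008-55088147 on the plus strand and that of Hsph1 chr5:149636337-149636396 on the minus strand. The Hspb1 stretch is chr5:135887779-135887859 and that of Bag3 chr7:128523508-128523582, both on the plus strand.
Hspa1a: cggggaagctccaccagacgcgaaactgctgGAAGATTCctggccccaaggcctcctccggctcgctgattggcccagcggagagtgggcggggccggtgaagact
Hspa1b: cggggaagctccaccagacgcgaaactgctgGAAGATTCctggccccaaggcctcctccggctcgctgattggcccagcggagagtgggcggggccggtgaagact
Hspe1: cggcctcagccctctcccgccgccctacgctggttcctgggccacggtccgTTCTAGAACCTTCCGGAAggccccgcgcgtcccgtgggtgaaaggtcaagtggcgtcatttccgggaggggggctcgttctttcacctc
Hsph1: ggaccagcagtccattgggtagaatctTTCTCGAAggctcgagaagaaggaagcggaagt
Hspb1: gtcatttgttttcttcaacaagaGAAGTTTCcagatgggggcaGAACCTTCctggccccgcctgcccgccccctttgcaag
Bag3: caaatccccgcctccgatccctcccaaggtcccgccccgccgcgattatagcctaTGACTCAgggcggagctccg

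In these windows 7 of the 8 genes held at least 1 pair of units, written GAANNTTC or TTCNNGAA, on either strand (both motifs read the same on both). Of all 32851 promoter windows of that length, 15.1% held one or the other. The motif of 3 units, in which GAANNTTC is followed at the same spacing by another GAA, on either strand, contains both pairs. It was found for 3 of the 8 genes, Hspd1, Hspe1 and Hsph1, and in 0.603% of all windows. Hspd1 and Hspe1 lie head to head, and their windows share the same run of 4 units, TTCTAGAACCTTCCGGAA as read on the Hspe1 strand, from -89 to -72 of the Hspe1 start and from -144 to -127 of the second Hspd1 start. The 3 units of Hsph1 lie after the start, at 37 to 49 from the first start, apart from the pair shown. The windows of Hspa1a and Hspa1b differed at 4 of 300 bases, all outside the stretch shown. The files hold no probe sequences, so whether the Hspa1a probe also reads Hspa1b transcripts was not tested. The AP-1 motif TGANTCA, the same on both strands, occurred in 1 of the 8 genes, Bag3, at -20 to -14, and in 7.81% of all windows; the related TGACGTCA occurred in none of them and in 1.79% of all windows. In Dnajb1 neither the heat shock nor the AP-1 letters occurred. The promoter box CCAAT, on either strand, was found for 5 of the 8 genes and in 37.4% of all windows. In these counts a gene had a match if any of its windows did, whereas the shares are of single windows, so the units differ. A match says only that these letters are there.

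**Figure D1:**
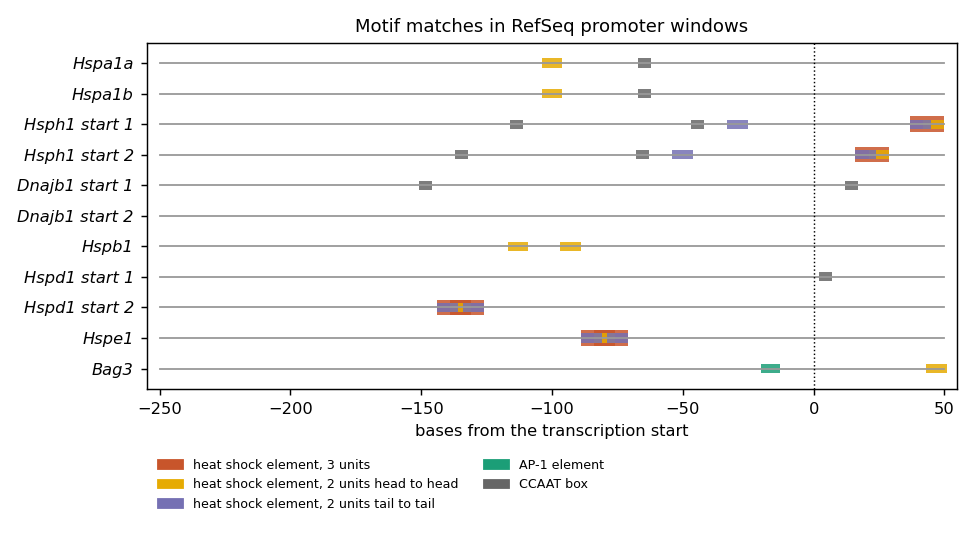
Motif matches in the 11 RefSeq promoter windows of 8 genes, by distance in bases from the transcription start (dotted line); boxes are matches, coloured by motif, on a grey line for each window from -250 to 50. The 3-unit heat shock motif is found for Hspd1, Hspe1 and Hsph1, and the AP-1 motif for Bag3.

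Markers of several cell types differed in level between the groups. All 12 macrophage markers, Adgre1 and Csf1r among them, were well above background on every array, with 6 higher and 6 lower and a median difference of -0.12. Groups did not overlap for 5 lower markers, against 20.2% of all genes, and for 3 higher ones, against 13.3%. At an unadjusted limma p below 0.05 there were 2 lower and 0 higher, against 6.53% of all genes on the lower side. The summed scaled signal of the 12 was from 936 to 1300 on wild-type and from 698 to 976 on c-Jun-deleted arrays. Without Lyz2 it was from 503 to 741 against 610 to 676, inside the wild-type range. In such sums the brightest genes weigh most. Lyz2, the lysozyme M gene, stood apart on c-Jun-deleted 1, at 4.46 on the log2 scale against values from 8.52 to 9.18 on the other 4 arrays. On wild-type 11 the resident macrophage genes Timd4 (1.47 against 4.11 to 4.83) and Gata6 (-1.07 against 1.29 to 2.08) stood apart. Markers of B cells summed to between 51.7 and 99.6 on wild-type arrays and to between 336 and 491 on c-Jun-deleted ones, with 12 of 12 higher. Erythroid markers (5 of 7 tested higher, Alas2 above background on no array) summed to between 0.668 and 1.52 against 10.8 and 23.0, and T and NK cell markers (9 of 11 higher) to between 18.7 and 57.8 against 59.2 and 79.2. Of these 11, only 2, Cd2 and Tcf7, had groups apart, against 13.3% of all genes on the higher side. Cd2, at 5.06 and 5.44 on c-Jun-deleted arrays against 2.50 to 3.46, gave the largest part of the c-Jun-deleted sums. Cd3e, Cd3d, Cd3g and Thy1 overlapped, and each was highest on wild-type 11. Sums overlapped for mast cell markers (41.2 to 121 against 92.3 to 98.3) and for neutrophil and eosinophil markers (15.8 to 18.2 against 11.8 to 17.5, with Epx and Prg2 above background nowhere). The part of these cells in the values that follow was not tested; in RNA of mixed cells, fewer cells of a type and less RNA per cell cannot be told apart.

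Values are log2 of the processed signal relative to the array's own 75th percentile, so a value of 0 is a spot as bright as that percentile; levels of different probes are not comparable. None of the 9 measured genes passed the limma test between c-Jun-deleted and wild-type arrays (Benjamini-Hochberg adjusted p from 0.423 to 0.972), as was the case for all 27938 genes tested (0% called). At an unadjusted p below 0.05 there were 0 of 9 as well, against 12.2% of all genes, or 6.53% on the lower side. The 95% interval of the difference spanned 0 for all 9. In 8 genes the means were lower on c-Jun-deleted arrays and in Hspd1 the mean was slightly higher, with folds from 1.01 to 1.53. Over all genes tested 61.4% had a negative difference, and 60% of those well above background on every array. In 4 of the 9, namely Hspa8, Hsp90aa1, Hspb1 and Bag3, both c-Jun-deleted arrays lay below all 3 wild-type arrays, against 20.2% of all genes (19.5% of the genes well above background on every array). That count was 0 when arrays were centred on their medians, where the share over all genes was 5.66%. In 0 of the 9 did both lie above, against 13.3% of all genes.

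**Figure D2:**
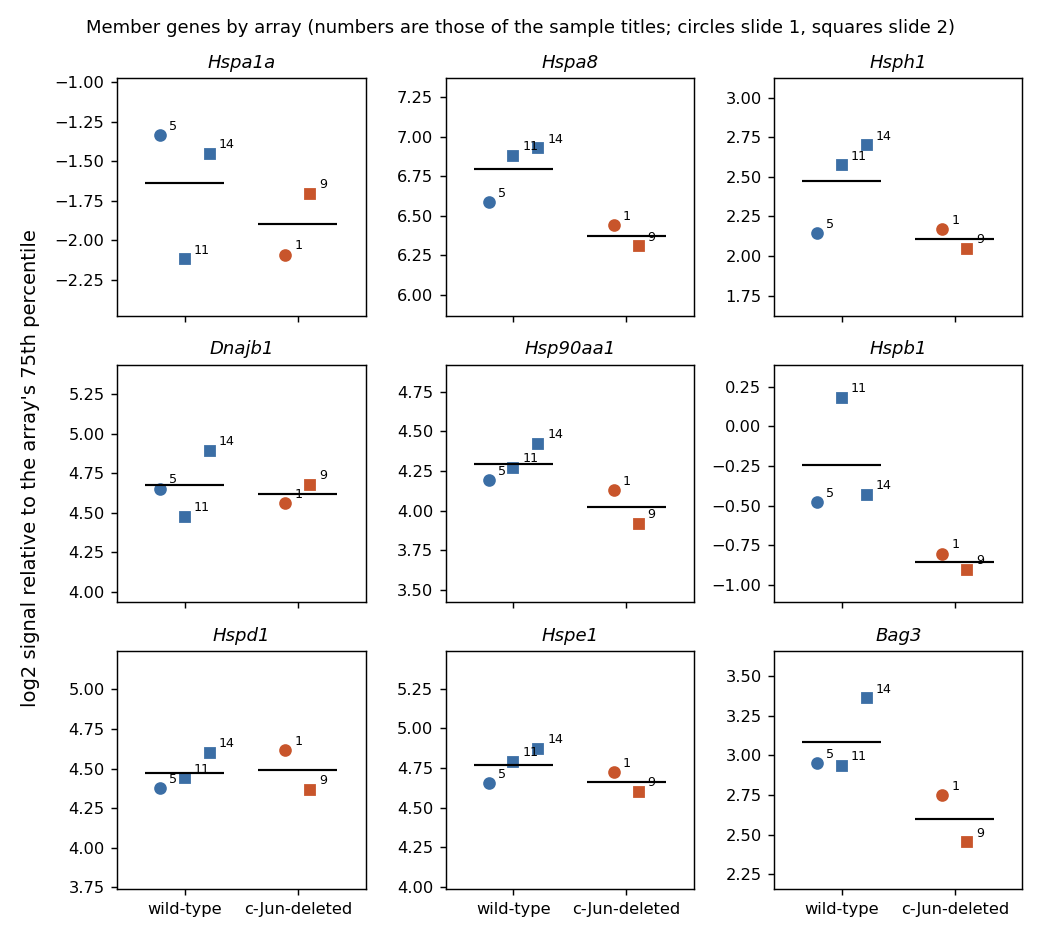
Log2 signal relative to the array's 75th percentile (vertical axes, each spanning the same 1.5 log2 units) for the 9 measured genes on each array, wild-type in blue and c-Jun-deleted in orange, circles for slide 1 and squares for slide 2, with black lines at the group means. The groups are apart for Hspa8, Hsp90aa1, Hspb1 and Bag3, with the narrowest gap for Hsp90aa1 (0.07).

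Among the HSP70 chaperones, Hspa8 encodes the constitutive cytosolic member. It was at 6.58, 6.88 and 6.93 on wild-type 5, 11 and 14 and at 6.44 and 6.31 on c-Jun-deleted 1 and 9. The c-Jun-deleted arrays were the lowest, 0.14 below wild-type 5, and the difference of -0.42 (SE 0.17, 1.34-fold lower) did not pass (limma adjusted p = 0.423). The other Hspa8 probes gave unlike sizes. The dimmest read 5.64, 5.91 and 5.73 against 5.28 and 5.26, a difference of -0.49 (unadjusted p = 0.0223 and adjusted p = 0.331 when every probe was tested on its own with limma). The brightest read 7.99, 7.78 and 7.80 against 7.68 and 7.73, a difference of only -0.15; its spot on wild-type 14 carried an outlier flag, which took it out of the main fit, and with flagged spots kept its adjusted p was 0.676. On all 3 probes the c-Jun-deleted arrays lay below the wild-type ones.

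Hspa1a, the stress-induced cytosolic HSP70, gave a dim spot, with a processed signal of 188, 105 and 176 on wild-type arrays against 140 and 134 on c-Jun-deleted ones. On the scaled log2 axis it was at -1.34, -2.12 and -1.45 against -2.09 and -1.70. Wild-type 11 was the lowest of all 5 arrays, and the groups overlapped. The difference was -0.26 (SE 0.30, 95% interval from -1.05 to 0.52, limma adjusted p = 0.736), an interval wider than that of any other of the 9 genes. It ranged from -0.50 without wild-type 11 to -0.0683 without c-Jun-deleted 1; it was also -0.45 without c-Jun-deleted 9, -0.11 without wild-type 5 and -0.17 without wild-type 14.

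Hsph1, the exchange factor of the HSP110 class, was at 2.14, 2.57 and 2.70 on wild-type arrays against 2.17 and 2.04 on c-Jun-deleted ones. Wild-type 5 stood between the c-Jun-deleted arrays, and the difference was -0.36 (SE 0.22, limma adjusted p = 0.532). Its other probe gave 0.56, 1.05 and 1.14 against 0.80 and 0.51, again with wild-type 5 between the c-Jun-deleted values. Bag3, the exchange factor that works with small heat shock proteins and selective autophagy, was at 2.95, 2.94 and 3.36 against 2.75 and 2.45. Both c-Jun-deleted arrays were below the wild-type range, by 0.19 at the nearest, and the difference was -0.48 (SE 0.21, 1.40-fold lower, limma adjusted p = 0.439). Before scaling, the Bag3 signal was 3663, 3491 and 4950 on wild-type arrays against 4006 and 2392 on c-Jun-deleted ones, so c-Jun-deleted 1 lay within the wild-type range there; the 75th percentile used for scaling was 596 on that array and from 437 to 482 on the others.

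Dnajb1, the main J-domain partner of the inducible HSP70, was at 4.65, 4.47 and 4.89 on wild-type arrays against 4.56 and 4.68 on c-Jun-deleted ones. The c-Jun-deleted values lay inside the wild-type range, and the difference was -0.05 (95% interval from -0.53 to 0.42, limma adjusted p = 0.918). Its sign turned with other scaling or background correction, to 0.16 when centred on medians, 0.10 with normexp and 0.08 after quantile normalization. Hsp90aa1, the inducible cytosolic HSP90, was at 4.19, 4.27 and 4.42 against 4.13 and 3.92. The groups were apart by 0.07 and the difference was -0.27 (SE 0.16, 1.21-fold lower, limma adjusted p = 0.519); it was -0.0622 with median centring and -0.17 without c-Jun-deleted 9 or with quantile normalization.

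Hspb1, the small heat shock protein that guards actin and other clients, had the largest difference and the widest range of the 9 genes. It was at -0.48, 0.18 and -0.43 on wild-type arrays against -0.80 and -0.91 on c-Jun-deleted ones. Wild-type 11 stood above the other arrays, and the gap between the groups was 0.3254. The difference was -0.61 (SE 0.25, 1.53-fold lower, limma adjusted p = 0.426), and it was -0.40 without wild-type 11. Mesothelial and stromal markers were also lower, with negative differences in 10 of 10 tested markers, against 61.4% of all genes. Their summed scaled signal was from 4.68 to 10.9 on wild-type arrays, highest on wild-type 11, and from 2.85 to 4.34 on c-Jun-deleted ones. Of 12 markers listed, Lum was nowhere well above background, whereas Wt1, Msln and Sparc were well above it on all 5 arrays. Their part in the Hspb1 difference was not tested.

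Of the mitochondrial chaperonin, Hspd1 was at 4.38, 4.44 and 4.60 on wild-type arrays against 4.61 and 4.37 on c-Jun-deleted ones. These 2 arrays were the highest and the lowest of all 5, and the difference was 0.02 (95% interval from -0.41 to 0.44, limma adjusted p = 0.972). Hspe1, its co-chaperonin and head-to-head neighbour, was at 4.65, 4.79 and 4.87 against 4.72 and 4.60. The groups overlapped on this probe and on both others, with differences of -0.11, -0.15 and -0.03. The first of these ranged from -0.17 to -0.0471 when single arrays were left out. Hspd1 and Hspe1 also had the narrowest ranges over the 5 arrays, 0.25 and 0.27, whereas that of Hspb1 was 1.09.

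**Figure D3:**
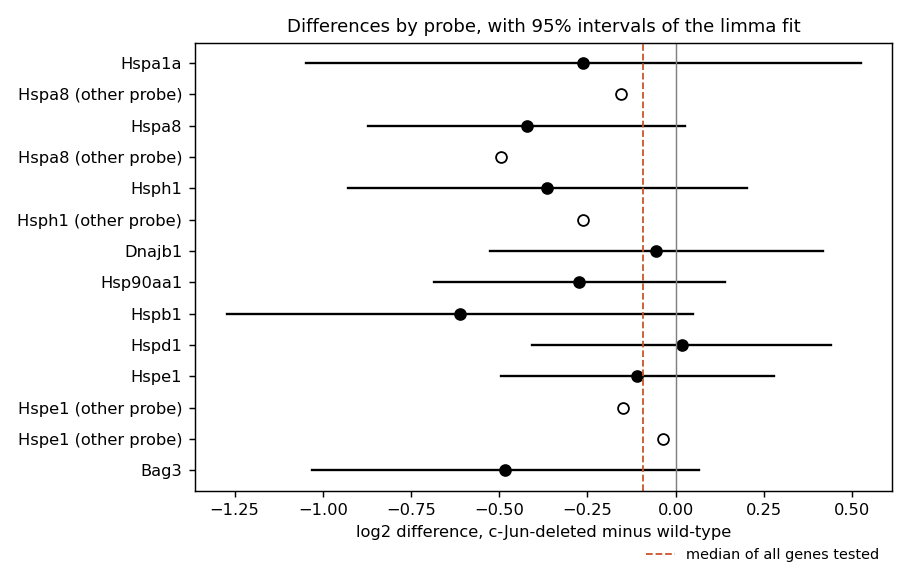
Log2 difference, c-Jun-deleted minus wild-type (horizontal axis), for the 14 probes; filled points are the probes that stand for a gene, with the 95% interval of the limma fit, and open points the other 5 probes, without one. The solid line is 0 and the dashed line the median of all genes tested (-0.09). Of the 14 probes, 13 have a negative difference, and all 9 intervals span 0.

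As a group, the 9 genes had a median difference of -0.27, beside -0.09 over all genes tested and -0.07 over those well above background on all arrays. Centring the arrays on their medians adds 0.21 to the difference of every gene, by construction, and put the medians at -0.06 for the 9 genes and 0.12 for all genes. The single genes were then at -0.21 for Hspa8, -0.06 for Hsp90aa1, -0.40 for Hspb1, -0.27 for Bag3, -0.15 for Hsph1, -0.05 for Hspa1a and 0.10 for Hspe1. The median of the 9 genes relative to the wild-type mean was -0.12, -0.03 and 0.13 on wild-type 5, 11 and 14 and -0.30 and -0.38 on c-Jun-deleted 1 and 9. The lowest of the 5 arrays was c-Jun-deleted 9 for 7 of the 9 genes, against 28.5% of all genes, and the highest was wild-type 14 for 6 of the 9, against 27.9% of all genes. With median centring c-Jun-deleted 9 was lowest for 4 of the 9 (22.5% of all genes) and wild-type 14 highest for 6 (28.2%). With quantile normalization c-Jun-deleted 9 was lowest for 5 of the 9 (26.5%) and wild-type 14 highest for 1 (22.9%).

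The arrays came from 2 slides, scanned separately, each with both genotypes. Slide 1 carried c-Jun-deleted 1 with wild-type 5, while c-Jun-deleted 9 shared slide 2 with both remaining wild-type arrays. With the slide as a block the median difference of the 9 genes was -0.28, close to that without it. Within slide 1 it was -0.09, beside -0.10 over all genes, and 6 of the 9 genes were lower on the c-Jun-deleted array. Within slide 2 it was -0.43, beside -0.07 over all genes, and 8 of the 9 were lower. On slides 1 and 2 the differences were -0.14 and -0.59 for Hspa8, -0.07 and -0.43 for Hsp90aa1, -0.33 and -0.78 for Hspb1 and -0.20 and -0.70 for Bag3. Both signs follow from the groups of these 4 genes not overlapping, and are no separate evidence; on slide 1 Hsp90aa1 was no lower than the median of all genes. For Hsph1 the slides gave 0.03 and -0.59, and for Hspe1 0.07 and -0.23, so the lower means of these genes came from slide 2. Hspd1 was at 0.24 and -0.15. Hspa1a ran the other way, with -0.75 on slide 1 and 0.08 on slide 2. With 1 c-Jun-deleted array on each slide, the difference between the slides was not tested.

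**Figure D4:**
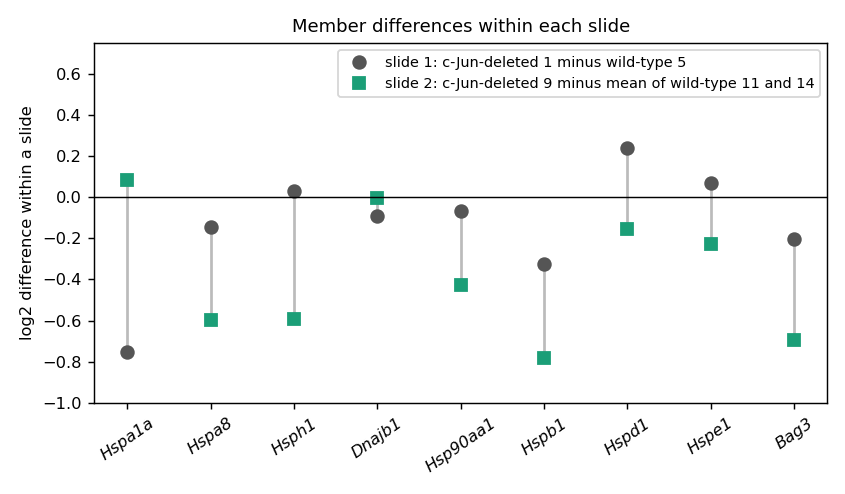
Log2 difference between c-Jun-deleted and wild-type arrays within each slide (vertical axis) for the 9 measured genes, grey circles for slide 1 (1 array of each genotype) and green squares for slide 2 (1 against 2), with no error since each value has 1 c-Jun-deleted array. The slide 2 value is the lower one for 7 of the 9 genes; Hspa1a and Dnajb1 are the others.

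The rest of the chaperone network was read from 9 lists, which with their overlaps removed held 104 genes, 97 of them tested. None passed the limma test over all genes (smallest adjusted p 0.227). At an unadjusted limma p below 0.05 there were 3 higher and 4 lower, against 1572 and 1823 of 27938 genes. The median difference of the 97 was -0.10, close to that of all genes (-0.09). Groups did not overlap for 19 lower genes (19.6% of the 97, against 20.2% of all genes) and for 6 higher genes (6.19%, against 13.3%). By this share and by their median the related genes lay near the background on the lower side. By sign they did not under this scaling, with 75 of 97 negative, against 61.4% of all genes. Centring on medians adds 0.21 to every difference, which puts the median of the 97 and that of all genes above 0. The counts by sign therefore depend on the scaling.

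Hsf1, the master regulator of the heat shock response, was at 1.72, 1.72 and 1.86 on wild-type arrays against 1.63 and 1.93 on c-Jun-deleted ones, a difference of 0.02 (SE 0.16, limma adjusted p = 0.974), with overlapping groups. Hsf2, a related factor that binds the same repeats, was at 0.56, 0.29 and 0.62 against 0.18 and 0.07, below the wild-type range, with a difference of -0.36 (adjusted p = 0.451). Of the other HSP70 genes 10 of 11 had negative differences, against 61.4% of all genes, and 1 was at an unadjusted p below 0.05. Their median of -0.19 was 0.0162 with median centring, -0.0064 without c-Jun-deleted 9, -0.089 without wild-type 14 and -0.31 without wild-type 11. The gene with the low p was Hspa2, an HSP70 best known from testis, at 0.54, 0.35 and 0.75 against 0.09 and 0.03. Hspa1l, which lies in the same cluster as Hspa1a, was lower by 0.91, with its spot clear of the background on 2 wild-type arrays and 1 c-Jun-deleted array.

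J-domain proteins other than Dnajb1 had a median of -0.09, with 16 of 21 lower, against 61.4% of all genes. That median was -0.0457 without c-Jun-deleted 9, -0.0572 without wild-type 14 and -0.17 without wild-type 11. Yet the list held the largest positive differences of the network. Dnajc7, a co-chaperone that links HSP70 and HSP90, was at 5.05, 4.95 and 4.95 on wild-type arrays against 5.67 and 5.94 on c-Jun-deleted ones (difference 0.82, SE 0.15, limma adjusted p = 0.227). Dnajc9, a J-domain protein that also binds histones, was at 3.00, 3.29 and 2.58 against 3.77 and 4.02 (0.94, adjusted p = 0.305). The B cell and erythroid marker sums given above were likewise higher on both c-Jun-deleted arrays than on every wild-type one. So was the T and NK cell sum, though only 2 of its 11 genes had groups apart. The part of these cells in Dnajc7 and Dnajc9 was not tested.

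Exchange and BAG factors other than Hsph1 and Bag3 had a median of -0.10 with 9 of 11 lower, with Bag1, which like Bag3 is an exchange factor of HSP70, at -0.30, the HSP70-interacting St13 at -0.17 and Stub1, a ubiquitin ligase for chaperone clients, at 0.16. The HSP90 family and its co-chaperones had a median of -0.03 with 9 of 16 lower; Fkbp5, a glucocorticoid-responsive HSP90 co-chaperone, was from 0.90 to 1.13 on wild-type arrays and at 1.34 and 1.41 on c-Jun-deleted ones (0.33, limma adjusted p = 0.448). Subunits of the TRiC chaperonin and prefoldin had 11 of 14 lower and a median of -0.10, with Cct5 at -0.31 and Pfdn2 at 0.16. Mitochondrial chaperones and proteases had 9 of 12 lower and a median of -0.10, with the protease subunit Clpp at 0.17 and the protease Lonp1 at -0.16. The counts of lower genes in these lists stand beside 61.4% of all genes. With median centring the medians of these lists were above 0, at 0.11 for exchange factors, 0.18 for the HSP90 family, 0.11 for TRiC and prefoldin and 0.12 for mitochondrial genes, beside 0.12 over all genes.

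Small heat shock proteins other than Hspb1 had the lowest median of the chaperone lists, -0.67 over 6 tested genes. All 6 had negative differences, against 61.4% of all genes. Of these, 3 (Hspb7, Hspb11 and Cryaa) were at an unadjusted limma p below 0.05, against 6.53% of all genes on the lower side. Hspb7 passed the filter on dim probes through wild-type arrays alone, and Cryaa was well above background on 4 of the 5 arrays. Hspb7 did not stand well above background on any c-Jun-deleted array and was at least 2.65-fold lower there; its wild-type values were -3.55, -3.54 and -4.16 (limma adjusted p = 0.232). The bound compares the wild-type mean with whichever was higher on each c-Jun-deleted array, the probe itself or the dimmest probe well above background. Hspb11, counted here by its symbol and not by its protein, was at 2.61, 2.32 and 2.64 against 2.15 and 1.79 (-0.56, adjusted p = 0.382). The median of this list was -0.43 without c-Jun-deleted 9. With normexp it was -0.38, and over the 4 genes well above background on all arrays it was also -0.38. The mesothelial and stromal markers given beside Hspb1 were lower in their group means too. On wild-type 5, 11 and 14 their median, relative to the wild-type mean, was -0.69, 0.65 and -0.18, beside 0.11, 0.16 and -0.24 for this list. On c-Jun-deleted 1 and 9 their median was -1.32 and -0.72, beside -0.43 and -0.90 for this list. The part of these markers in the list was not tested.

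Other genes driven by heat shock factor 1 had a median of -0.15 with 17 of 19 lower, against 61.4% of all genes. That median was 0.06 with median centring, -0.0668 without c-Jun-deleted 9, -0.0883 without wild-type 14 and -0.23 without wild-type 5. Serpinh1, the collagen chaperone, was at -2.87, -1.72 and -1.69 on wild-type arrays against -3.35 and -2.98 on c-Jun-deleted ones (-1.08, limma adjusted p = 0.418), beside the same lower stromal markers. Dedd2 was higher, at 3.17, 2.80 and 2.95 against 3.44 and 3.75 (0.62, adjusted p = 0.340). Hsp90ab1, the constitutive HSP90, was at 6.91, 6.92 and 7.15 against 6.97 and 6.94, with overlapping groups.

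**Figure D5:**
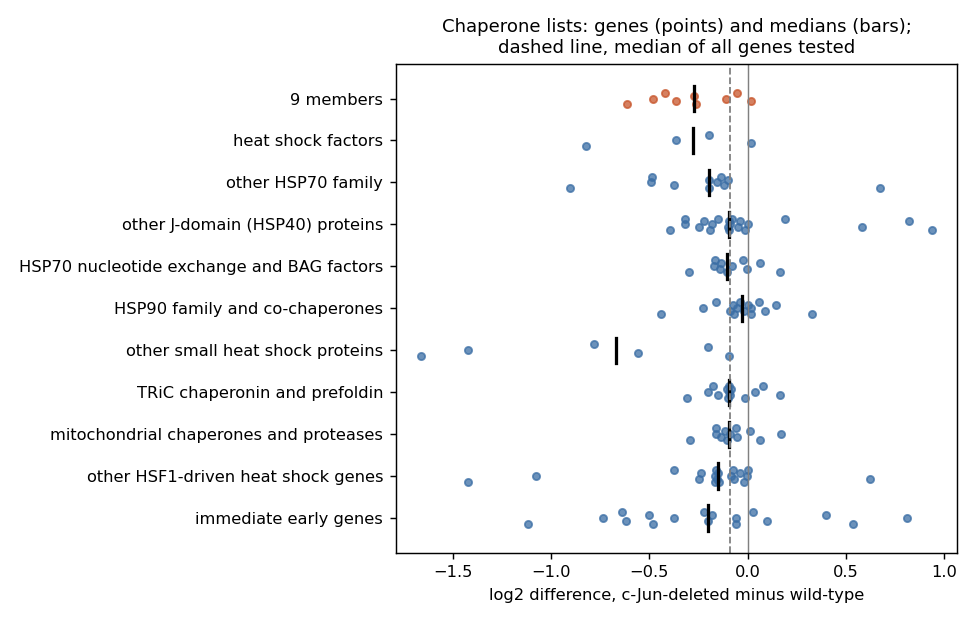
Log2 difference, c-Jun-deleted minus wild-type (horizontal axis), of the tested genes in each list (points), with list medians as black bars, zero as a solid line and the median of all genes tested (-0.09) as a dashed line; vertical offsets within a row have no meaning. The 9 members (orange) have a median of -0.27 and the other small heat shock proteins the lowest one, -0.67.

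Immediate early genes, which are raised along with heat shock genes by handling and other stress, numbered 12 lower of 17, beside 61.4% of all genes, and none passed the limma test. Their median of -0.20 was 0.0091 with median centring, -0.38 without c-Jun-deleted 9 and -0.32 without wild-type 5. Jun, the targeted gene, was at 3.21, 3.75 and 3.17 on wild-type arrays against 2.76 and 2.71 on c-Jun-deleted ones (-0.64, adjusted p = 0.391); the files do not place its probe inside or outside the floxed stretch. Atf3, a stress-induced partner of Jun, was at 3.37, 4.26 and 3.74 against 3.06 and 3.05 (-0.74, adjusted p = 0.417). Fos, its classical AP-1 partner, was at 1.67, 0.70 and 2.02 against 0.73 and -0.04, with overlapping groups, and Egr1 and Ier3 differed by 0.10 and -0.62. Jund and Klf2 were higher, by 0.54 and 0.81 (adjusted p = 0.386 and 0.411).

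Hspb1, as the gene of the 9 with the widest range, was used to look for genes of like pattern over the 5 arrays, by the root mean square difference between values centred on each gene's own mean. The nearest were Socs6 (0.03), Rbbp8 (0.03), Jun (0.05), Trim36 (0.07) and Uprt (0.07), in log2 units, all of them well above background on every array. Each was highest on wild-type 11 and lowest on c-Jun-deleted 9, as Hspb1 was. With 5 arrays and 27938 genes, near patterns are easily found, and no test was made.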

How the data were processed

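RNA of 5 samples was measured on 1-colour Agilent arrays, 1 array per sample, from 50 ng of total RNA per the labels' protocols. The deposited scanner output gives an intensity per spot, background-subtracted within the array by Feature Extraction 11.5.1.1 and not scaled between arrays, per the file headers. The scanner files also hold 0 or 1 flags, an other kind of value, which the deposited files give for spots above background, saturated or outlying. The deposited table of the series holds log2 values, 1 mean per group after a 75th percentile shift per its name. Its header also names a wild-type array that is not among the 5 samples. Of the 14 member probes 0 are among its 1709 probes, so it gave no value here. Its medians were 0.54 and 1.19 for wild-type and c-Jun-deleted, its scale matched the scanner files (1692 differences within 0.001), and the baseline subtracted from each probe stays unknown.

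The value used was log2 of the processed signal minus log2 of the array's 75th percentile over 59305 non-control spots (437 to 596). Outlier-flagged spots were left out, spots of a probe averaged, and probes kept if well above background on at least 2 arrays (32821) and measured on all 5 (32565). Transcript accessions were matched without version to RefSeq symbols of GRCm38.p6 (28026 probes named); the arrays were designed on mm9, so coordinates are given only for the RefSeq promoter windows. A gene is its brightest usable probe. The genotypes entered lmFit and eBayes of limma 3.58.1 (R 4.3.3) without covariates; 2-sided p-values were adjusted over 27938 genes by Benjamini-Hochberg, threshold 0.05; the script was tested on simulated data. An exact permutation of 3 against 2 arrays cannot give a 1-sided p below 0.1, so none was run. The number of arrays limits the precision.

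The members and lists were chosen with earlier results of these data known. All members are named; in related lists Hsf1 and Hsf2, and the genes with the smallest p in each direction (up to 2), could be named, of which a subset is described, and Fos, Egr1, Atf3 and Ier3 of the immediate early list. Hsp90ab1, Cryaa and the named T and NK cell genes were picked after their values were seen. Alternatives were the background correction (normexp on the median spot and background signals, since mean signals were not used here), scaling, filters, probe choice, flags, slide, mouse number in the source names, array weights, variance trend and leaving out arrays.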

Additional observations from a re-analysis of the deposited data

How the results depend on the processing

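Over 18 alternatives, 0 of 9 members passed the adjusted threshold in every fit with a test (limma), and also when every probe was tested on its own, a setting chosen after seeing the data. Of 162 recomputed member differences 148 kept their direction; Hspa8, Hsp90aa1, Hspb1 and Bag3 kept theirs throughout. The 14 that turned sign were as follows. Dnajb1 was at 0.10 with normexp, 0.0756 with quantile normalization, 0.16 with median centring, 0.0555 with the replicate block by mouse number in the source names, and, leaving out 1 array, 0.0555 (wild-type 14) and 0.0043 (c-Jun-deleted 1). Hspd1 was at -0.15 within slide 2 and ranged from -0.1067 to 0.1422 when single arrays were left out, below 0 when c-Jun-deleted 1 or wild-type 5 (-0.0299) was. Hspe1 was at 0.0181 with quantile normalization, 0.10 with median centring and 0.0702 within slide 1. Hspa1a was at 0.0818 within slide 2 and Hsph1 at 0.0276 within slide 1.

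The median over the members was -0.0622 with median centring, -0.0921 within slide 1, -0.43 within slide 2, -0.21 with the replicate block and from -0.38 to -0.21 with single arrays left out. Members lower without overlap numbered 0 with median centring, 7 within slide 2 (39.7% of all genes) and from 4 to 7 with single arrays left out (7 without c-Jun-deleted 1, where it was 36% of all genes); members higher without overlap numbered 1 with quantile normalization (18.1% of all genes) and from 0 to 1 with arrays left out (1 without c-Jun-deleted 9, 18.3% of all genes). Over all genes, 187 passed with median centring and 1 with array weights, none a member.

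List medians moved with median centring to -0.0694 for heat shock factors, 0.11 for exchange factors, 0.18 for HSP90 genes, 0.0091 for immediate early genes, 0.12 for mitochondrial genes, 0.0598 for other targets of heat shock factor 1, 0.0162 for other HSP70 genes, 0.12 for J-domain genes and 0.11 for TRiC and prefoldin. Within slide 1 they were -0.32 for immediate early genes, 0.0589 for targets of heat shock factor 1, -0.0305 for J-domain genes, -0.37 for other small heat shock proteins and 0.0278 for TRiC and prefoldin. Within slide 2 they were 0.0356 for exchange factors and -0.22 for TRiC and prefoldin. The J-domain median was -0.0319 with quantile normalization and from -0.1686 to -0.0457 with arrays left out; the small heat shock list was at -0.38 with normexp and -0.38 with the stricter filter; immediate early genes ranged from -0.3825 to -0.1748 with arrays left out. The other ranges with single arrays left out were from -0.37 to -0.21 for heat shock factors, -0.31 to -0.0064 for HSP70 genes, -0.15 to -0.0212 for exchange factors, -0.0796 to 0.0428 for HSP90 genes, -0.90 to -0.43 for small heat shock proteins, -0.17 to -0.0235 for TRiC and prefoldin, -0.17 to -0.0041 for mitochondrial genes and -0.23 to -0.0668 for targets of heat shock factor 1. The blocks changed no call. The source names repeat mouse numbers 1 and 2 in both groups; whether these pair animals is not stated.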

Other observations

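Cryab, which encodes the small heat shock protein alpha-B-crystallin, stood far above the other arrays on wild-type 11, at 1.19, against -1.26 and -0.38 on wild-type 5 and 14 and -1.32 and -1.83 on c-Jun-deleted 1 and 9 (difference -1.42, limma adjusted p = 0.492). Cryab and Krt19 were singled out after their values were seen. Krt19, an epithelial and mesothelial keratin, was likewise highest on wild-type 11, at -1.06 against -2.71 and -2.86 on the other wild-type arrays. Wild-type 11 also had the lowest Xist, at -4.53 against values from -0.04 to 0.74 on the other arrays. It had the highest Uty, a gene of the Y chromosome, at -2.06 against values from -7.73 to -3.97. Uty was well above background on 2 arrays. Neither c-Jun-deleted array had a low Xist (0.57 and 0.74). The mice were of either sex per the labels. The part of sex in the values of wild-type 11, and so in the differences between the groups, was not tested.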
